A study of Sus scrofa with 12 samples.

Results

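In the uterus of neonatal gilts, 22 transcripts ranged over at least 2 log2 units between litters. The 2 littermates of every litter stayed within 1 log2 unit of each other. The 22 were chosen from the deposited normalized values, which are read counts divided by 1 factor per library, on the scale log2(value + 1). On this scale littermates with low values can be over 2-fold apart, as for ENSSSCT00000012778 in litter 1, at 4.66 and 10.2 units. A transcript had to have a mean of at least 100 normalized units over the 12 libraries, a range over the 6 litter means of at least 2 log2 units, and a difference between low and high littermate of at most 1 log2 unit in each litter. Of the 19407 transcripts with an ID, 11697 had a mean of at least 100. Of these, 142, or 1.21%, had a range of at least 2, and 9479, or 81.0%, had littermates within 1 log2 unit in every litter; 22 met both. All 22 passed the low-count filter of the tests given below.

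The study profiled uterus from 12 crossbred gilts by poly(A) RNA sequencing, with 1 library per animal. Each of 6 litters gave 1 gilt with a low and 1 gilt with a high immunocrit (iCrit) ratio on the day of birth, a serum measure used as an index of colostrum intake; the labels call the low gilts insufficient and the high gilts sufficient in lactocrine exposure, that is, exposure to factors of first milk. Litters 1, 2, 3 and 6 were collected at 14 days after birth and litters 4 and 5 at 15 days, so littermates never differed in age. No transgene, drug or other agent is named in the labels. Libraries held between 20809072 and 48306794 counted reads, and the high gilt's library was the deeper one in 6 of 6 litters. Depth also differed between litters. The libraries of litters 1, 4 and 5 held at least 32743239 reads and those of litters 2, 3 and 6 at most 27751966. One read was worth between 0.6 and 1.45 normalized units. The 2 libraries of litter 3 were less alike than those of the other litters. Over the 11697 transcripts their median absolute difference was 0.50 log2 units, against 0.17 to 0.26 in the other litters. Without litter 3, 112 of 11698 transcripts (0.957%) had a range of at least 2 and 10783 (92.2%) had littermates within 1 log2 unit in every litter, against the 142 and 9479 given above.

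The uterus of the gilt is immature at birth, and its endometrial glands form in the weeks after birth, a process that milk-borne factors are known to influence. Littermates share a dam, a nest and, here, an age at collection. A transcript level that is common to littermates and differs between litters can follow inherited variants near a gene, maternal or environmental influences, or the age and handling of the litter, and in this design these cannot be told apart. Read depth differed by litter as well, and its part in such differences was not tested. Each value comes from bulk tissue, so fewer cells of a type and less RNA per cell cannot be told apart either.

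The deposited table does not pair the transcript IDs with genes, and 0 of the 19407 IDs were found in the reference tables used. The transcripts are therefore given by ID, without gene names or sequences, the labelled tissue could not be checked against its marker genes, and the lists of cell type markers had 0 members to test. Where isoforms or paralogs share reads, the level of a single transcript is uncertain. Nothing in the files says which of the 22 belong to the same gene. Their ID numbers are at least 206 apart.

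**Figure D1:**
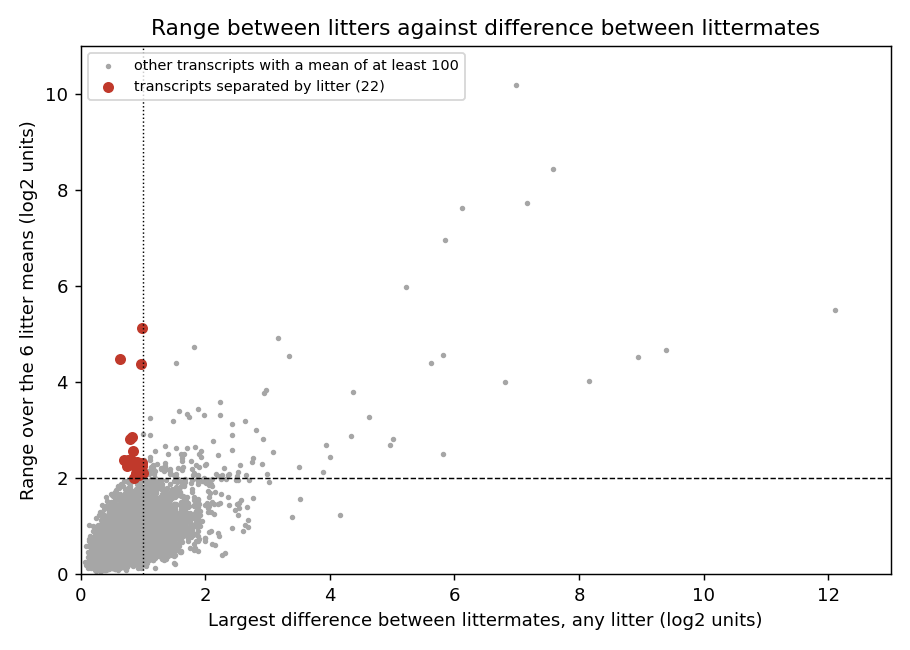
Each point is 1 of the 11697 transcripts with a mean of at least 100 normalized units; the horizontal axis is the largest difference between littermates in any litter and the vertical axis the range over the 6 litter means, both in log2 units. The dashed and dotted lines are the limits of 2 and 1 log2 units, and the 22 transcripts separated by litter (red) fill the area above the first and left of the second, 3 of them with a range above 4.

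The range over litter means had a median of 2.32 log2 units over the 22 transcripts and reached 5.14, against a median of 0.63 over all 11697. Across the 22, the median SD between littermates was 0.37 log2 units, with values from 0.24 to 0.48 (6 pairs each). These values chose the transcripts and are given as a description. Mean levels spanned from 100.1 to 17426 normalized units with a median of 309. At the lower limit of range, ENSSSCT00000050194 lay just inside with 2.005 log2 units and ENSSSCT00000037813 just outside with 1.95. At the limit for littermates, ENSSSCT00000053695 lay just inside with a largest difference of 0.996 and ENSSSCT00000049942 just outside with 1.002.

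Shapes were told apart by sorting the 6 litter means. A transcript was called stepped where the largest gap between neighbouring means took at least 50% of the range, and graded otherwise. A stepped transcript was called on/off where every library below the gap was under 10 normalized units and every library above it was not. Of the 22 transcripts, 5 were stepped, 17 graded and 0 on/off. With the off limit at 20 units in place of 10, the transcript ENSSSCT00000012778 became on/off. Of the 22, 20 were at 32.2 normalized units or more in their lowest library, so that most of these differences were between levels that were all well above 0.

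A step that left litter 1 low was seen for ENSSSCT00000012778. In litter 1 it measured 4.66 normalized units in the low and 10.2 in the high gilt, resting on 5 and 12 reads. Low gilts of litters 2 to 6 had 268, 303, 285, 122 and 136 units, and their high littermates 191, 256, 187, 105 and 110.1. Both animals of litter 1 thus lay far below the other 10 libraries, whose lowest value was 105. The 2 libraries of litter 1 averaged 7.41 ± 3.89 (SD, n = 2) and the other 10 averaged 196 ± 76.6 (SD, n = 10). Here and below, n counts libraries, which come as littermate pairs and are not independent replicates. The sides were set by the largest gap in these same values. The litter means ranged over 5.14 log2 units, the widest range of the 22, and the largest gap took 74.9% of it. Among those 10 libraries the levels were themselves spread, litters 5 and 6 lying under litters 2, 3 and 4.

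The reverse shape, with 1 litter high, was seen for ENSSSCT00000002808. Litter 5 measured 3385 normalized units in the low and 3050.4 in the high gilt. In litters 1, 2, 3, 4 and 6 the low gilts had 216, 217, 174, 153 and 204 units and the high gilts 166, 184, 165, 132 and 131. Litter 5 averaged 3218 ± 237 (SD, n = 2) against 174 ± 31.3 (SD, n = 10), and no library of another litter exceeded 217. The largest gap took 89.1% of a range of 4.49 log2 units, the greatest share among the 22. Outside litter 5 this transcript was nearly level. It was also the 1 transcript of the 22 in which the low gilt exceeded the high gilt in all 6 litters, by 0.07 to 0.63 log2 units; over all 11697 transcripts this was met by 0.889%. The opposite, low under high in all 6 litters, was met by 0 of the 22 and by 0.616% of all.

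The third transcript with a range above 4 split the litters 3 against 3. ENSSSCT00000045022 measured 370.3 and 356 normalized units in the low and high gilts of litter 2, 247 and 179 in litter 4, and 342 and 270.5 in litter 5. Both gilts were far lower in litter 1, at 27.0 and 23.7, in litter 3, at 18.7 and 14.4, and in litter 6, at 12.8 and 26. The upper 6 libraries averaged 294 ± 74.8 and the lower 6 averaged 20.4 ± 6.06 (SD, n = 6 each), with no library in between 27.0 and 179. The lower libraries rested on 9 to 29 reads. The upper side held 1 litter of day 14 and both litters of day 15, and the step did not follow the day of collection, since litter 2 was collected at day 14.

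The other 2 stepped transcripts had narrower gaps. ENSSSCT00000010582 was high in litter 1, at 469.7 in the low and 579 in the high gilt, where the other 10 libraries lay between 101 and 286. The range was 2.07 log2 units and the gap took 56.4% of it. ENSSSCT00000023752 was low in litter 3, at 168 and 84.2, where the other 10 libraries lay between 247 and 599. Its gap took 50.9% of 2.32 log2 units, and its littermates in litter 3 differed by 0.99, close to the limit. Both would be graded if the gap had to take 60% of the range, which leaves 3 stepped transcripts; with 40% there were 13.

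**Figure D2:**
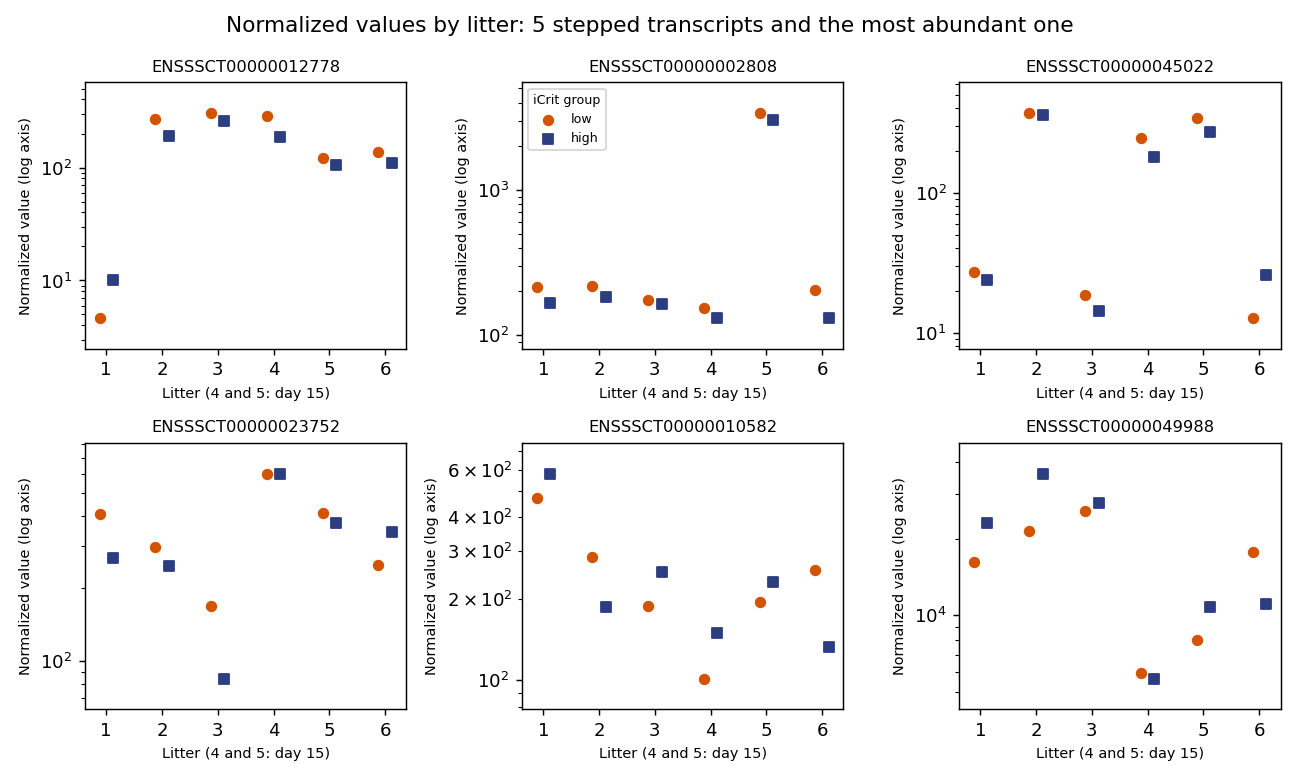
Normalized values of the 5 stepped transcripts and of the most abundant of the 22, ENSSSCT00000049988, by litter, on log axes; circles are low and squares high iCrit gilts, 1 library each. Littermates lie within the limit of the rule, with litter 1 near 10 or below for ENSSSCT00000012778, litter 5 above 3050 for ENSSSCT00000002808 and 2 levels for ENSSSCT00000045022.

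The 17 graded transcripts ranged over 2.005 to 2.85 log2 units, that is, 4.01-fold to 7.20-fold in value + 1. Their largest gap took 29.5% to 47.9% of the range. The widest was ENSSSCT00000045579. Its values were 56.8 and 51.6 in the low and high gilt of litter 1, 119 and 154 in litter 2, and 154 and 144 in litter 3. They were 345 and 455 in litter 4, 305 and 177 in litter 5, and 187 and 331 in litter 6. Litter 1 was lowest and litter 4 highest, with the remaining litters spread between them. ENSSSCT00000047145 was highest in litter 5, at 325 in the low and 222 in the high gilt, and lowest in litter 1, at 42.9 and 32.2. The other 8 libraries lay between 43.6 and 133, so that here litter 5 lay above every other library while the remaining litters were graded.

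The 2 most abundant of the 22 were graded, and litter 4 was the highest litter for one and the lowest for the other. ENSSSCT00000057104 had litter 1 lowest, at 4623 in the low and 5059 in the high gilt, and litter 4 highest, at 23326 and 25363. In litters 2, 3, 5 and 6 the low gilts measured 11105, 6531, 14646 and 9193 and the high gilts 7149.8, 9076, 12959 and 17212. ENSSSCT00000049988 had litter 4 lowest, at 5932 and 5646, followed by litter 5, at 8033 and 10755. Its values in the low gilts of litters 1, 2, 3 and 6 were 16182, 21508, 25723 and 17806, and those of their high littermates 23011, 35934, 27537 and 11049. With at least 4888 reads in every library of either transcript, counting error is small beside these differences.

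The remaining members are named for completeness, after their values were seen. ENSSSCT00000069773 measured 153 to 340.1 in the 6 libraries of litters 1, 2 and 3 and 474 to 1327 in those of litters 4, 5 and 6, so that these sides did not overlap; it was graded because the gap took 45.1% of the range. ENSSSCT00000037807 was highest in litter 4, at 296 and 217, with 38.1 to 140.4 elsewhere. ENSSSCT00000044736 was highest in litter 3, at 644 in the low and 854 in the high gilt, and no other library exceeded 361. The low library of litter 3, which differed widely from its littermate over all transcripts, was here the second highest and lay beside that littermate.

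Litter 6 was highest for ENSSSCT00000088510, at 2576 and 1706, and litter 5 followed at 1834 and 1622, against 316 to 993 in the other 8 libraries. For ENSSSCT00000027504 litter 6 had 877 and 460.5, and for ENSSSCT00000045243 it had 2782 and 3307, where litter 4 had 3051 and 2623. Litter 6 was thus the highest litter for these 3 transcripts.

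ENSSSCT00000008133 was lowest in litter 4, at 64.9 and 69.6, and highest in litter 5, at 407 and 281, although both litters were collected at day 15. ENSSSCT00000011850 and ENSSSCT00000063602 were highest in litter 5 as well, at 316 and 319 and at 858 and 544, and both were lowest in litter 1. Litter 1 was highest for ENSSSCT00000017351, at 649.6 and 572, and for ENSSSCT00000079123, at 424 and 726; both were lowest in litter 4. Of the 2 transcripts at the limits of the rule, ENSSSCT00000050194 was lowest in litter 4, at 46.2 and 62.4, and next in litter 3, at 88.2 and 97.5, with the other 8 libraries at 137 or more. ENSSSCT00000053695 was lowest in litter 3, at 41.4 and 33.2, and the other 10 libraries started at 54.2.

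**Figure D3:**
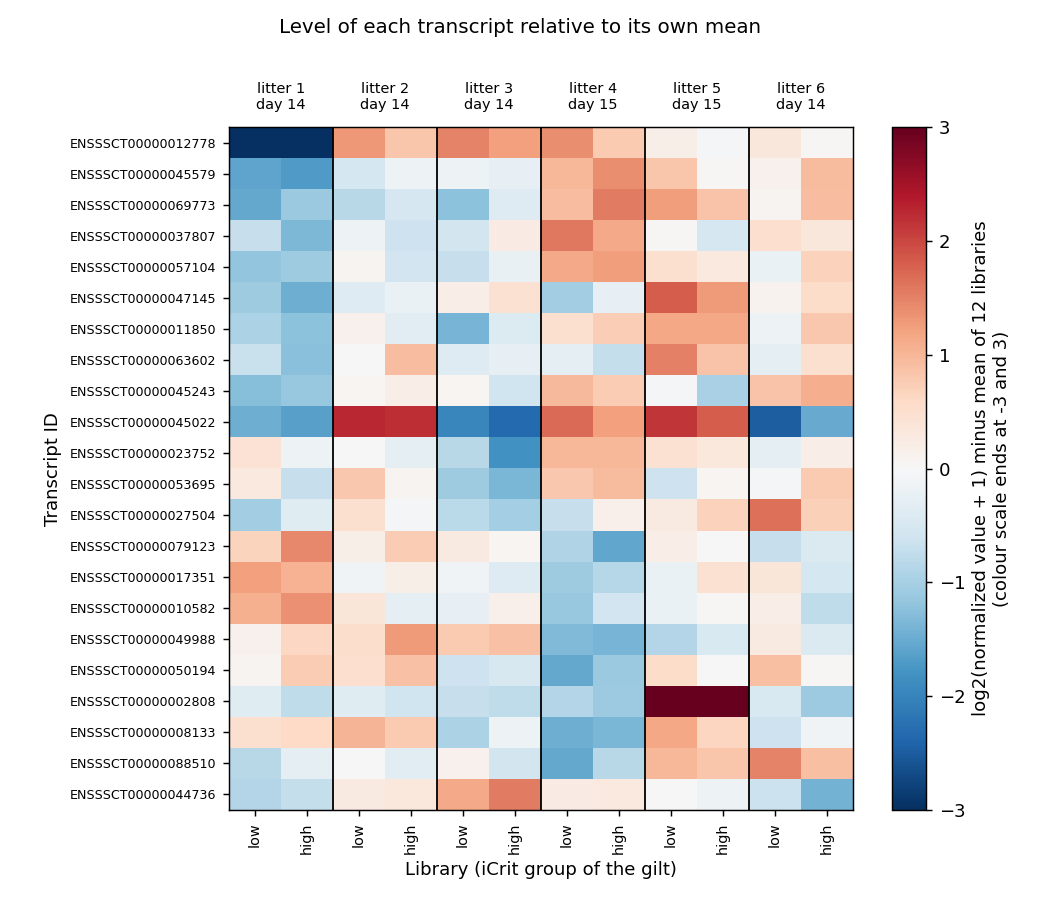
Each row is 1 of the 22 transcripts and each column 1 library, grouped by litter; colour is log2(normalized value + 1) minus the mean of the row's 12 libraries, with the scale ending at -3 and 3. Littermates differ by at most 1 log2 unit in each row and can lie on opposite sides of the row's mean, as for ENSSSCT00000053695 in litter 1. Rows are ordered by their lowest and then their highest litter, so that litter 1 is lowest in the top 9 rows and litter 4 in 8 rows further down.

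Litters 1 and 4 were the most frequent lowest litters. Litter 1 had the lowest mean for 9 of the 22 transcripts and the highest for 3, and litter 4 had the lowest for 8 and the highest for 6. Litter 1 or litter 4 was at an end of the range in 19 of the 22, or 86.4%, where this held for 58.3% of all 11697 transcripts and for 72.5% of the 120 that ranged as widely but had littermates over 1 log2 unit apart. Litters 2 and 5 were the lowest litter for 0 of the 22 and the highest for 3 and 5. Over all 11697 transcripts, litter 2 was lowest for 13.6% and highest for 13.4%, and litter 5 for 16.9% and 16.0%. Over all 11697 transcripts the lowest litter was litter 1 for 20.2%, litter 4 for 20.6% and litter 3 for 17.8%, and the highest was litter 1 for 15.4%, litter 4 for 18.8% and litter 3 for 27.4%. Litter 3 was at either end for 45.1% of all and for 6 of the 22.

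Litters 1 and 4 were also opposite ends for several transcripts. For 4 of the 22, litter 1 was lowest and litter 4 highest: ENSSSCT00000069773, ENSSSCT00000045579, ENSSSCT00000057104 and ENSSSCT00000037807. The reverse order was seen for 3: ENSSSCT00000079123, ENSSSCT00000010582 and ENSSSCT00000017351. Together they made up 31.8% of the 22, where the same pair of ends was seen in 16.7% of all 11697 transcripts and in 23.3% of the 120 that ranged as widely but had littermates over 1 log2 unit apart. With 22 transcripts, chosen on these litter means, no test was made of this difference. Litter 3 was the highest litter for 2 of the 22.

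**Figure D4:**
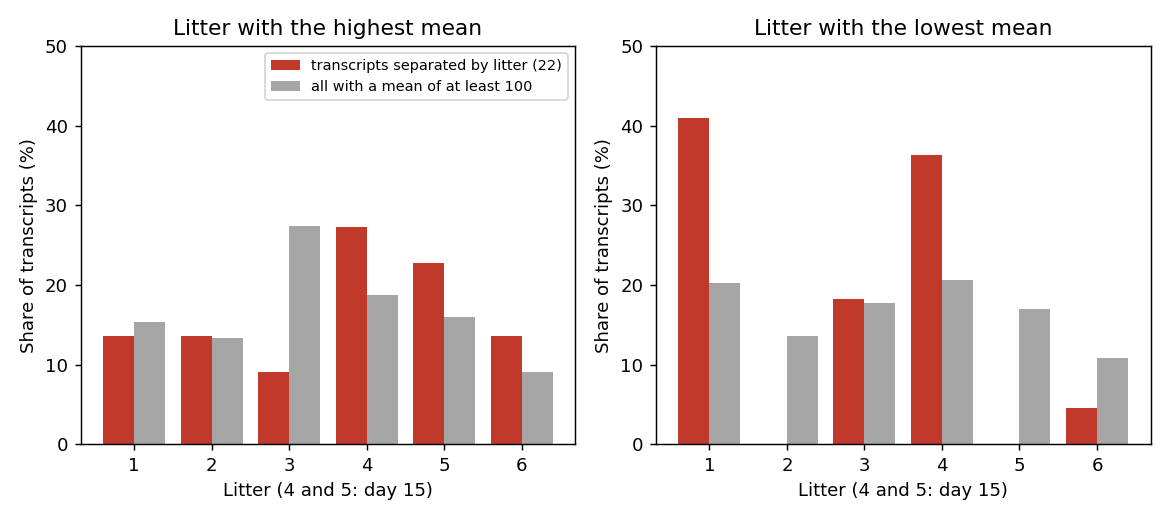
Share of transcripts in percent for which each litter had the highest mean (left) and the lowest mean (right); red bars are the 22 transcripts separated by litter and grey bars all 11697 with a mean of at least 100. Litter 1, with 9 of 22, and litter 4, with 8 of 22, are the most frequent lowest litters.

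The mean of the day 15 litters was above that of the day 14 litters in 15 of the 22, or 68.2%. This held for 47.7% of all 11697 transcripts and for 57.5% of the 120 wide ones outside the rule. The rule used these litter means, so the share is a description. In 1 of the 22, ENSSSCT00000049988, all 4 libraries of day 15 lay below all 8 libraries of day 14. The highest value of day 15 was 10755 and the lowest of day 14 was 11049. Over all 11697 transcripts this was met by 1.15%. All 4 libraries lay above those of day 14 in 0 of the 22, against 1.08% of all. The comparison of litter means was less strict. Both day 15 litters exceeded every day 14 litter in 4 of the 22 (ENSSSCT00000069773, ENSSSCT00000057104, ENSSSCT00000011850 and ENSSSCT00000023752), against 12.8% of all, and both were below in 1 of the 22, against 12.7%. Counts of 4 and 1 among 22 are too small to set apart from these shares. A step that parted litters 4 and 5 from the rest was seen in 0 of the 22. The share of such steps over all transcripts was not computed, so nothing is read from this count.

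The means of the 2 litters of day 15 were at least 1 log2 unit apart in 12 of the 22, with a median of 1.06, against 1.69% of all 11697 transcripts. The rule asks for wide litter differences, and among the 120 wide transcripts outside it the share was 48.3%. The 2 litters lay on opposite sides of the mean of the day 14 litters in 10 of the 22, against 28.8% of all and 34.2% of those 120. The 6 litters do not separate the day from the litter, since only 2 were collected at day 15. Day 15 was tested against day 14 with littermates' counts summed. By the quasi-likelihood test in edgeR, 0 of the 22 had an adjusted p under 0.05, where 0.00628% of 15917 transcripts did; the smallest adjusted p among the 22 was 0.259. Without adjustment, 6 of the 22 and 12.4% of all had a p under 0.05. Since the rule favours wide litter differences, nothing is read from these counts.

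The 1 transcript called between days was not one of the 22. ENSSSCT00000045121 had 340 and 1946 reads in the high gilts of litters 4 and 5 and 1 read in each of the other 10 libraries, so it was high in a single animal of each day 15 litter. Alignment with day changed with the litters kept. Without litter 6 the rule found 36 transcripts, of which 14 had all day 15 libraries apart from all day 14 libraries, and the edgeR test called 365 transcripts, while the same test called 4 without litter 4, 2 without litter 5 and 0 without litter 3. Day 15 libraries were apart for 12 of 19 without litter 5, 5 of 16 without litter 4, 3 of 25 without litter 2, 2 of 15 without litter 1 and 1 of 21 without litter 3. The shares over all transcripts also moved: they were 13.2% without litter 6, 12.1% without litter 5 and 10.04% without litter 4, and 2.75% to 3.21% without litter 1, 2 or 3. Leaving out litter 4 or 5 leaves a single day 15 litter, whose spread is assumed to be that of the others. Day 15 is then apart wherever that litter alone lies beyond the day 14 litters. The rule favours such transcripts, so nothing about day is read from the counts without litter 4 or 5.

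The rule bounds the difference between low and high littermates, so the 22 could show little of it. Averaged over the 6 litters, low minus high was positive in 11 and negative in 11, with a median of -0.01 log2 units and values from -0.45 to 0.28. With litter as a block in edgeR's quasi-likelihood test, 0 of the 22 had an adjusted p under 0.05, as did 0.0% of all 14821 transcripts tested; 1 of the 22 and 225 of all had an unadjusted p under 0.05. Leaving litter 3 out raised the latter to 1126 of 14920 transcripts tested, with 0 called and a smallest adjusted p of 0.24 in edgeR. DESeq2, on all litters, called 2. Within litters the members' littermates were least alike in litter 6, with a median absolute difference of 0.75 log2 units against 0.33 to 0.42 in the others, whereas over all transcripts litter 6 had 0.23. The low gilt was above the high gilt in 16 of 22 transcripts in litter 5 and in 9 to 12 in the other litters. No share over all transcripts stands beside these counts, and nothing is read from them.

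A test of the 5 litter terms with the iCrit group as a covariate used the contrast that chose the transcripts, and is given for reference. With edgeR's quasi-likelihood test 13 of the 22 had an adjusted p under 0.05, 3 stepped and 10 graded, where 0.574% of the 14821 transcripts did. The adjusted p ranged from 1.94e-07, for ENSSSCT00000002808, to 0.152, for ENSSSCT00000053695. Of the 85 transcripts called in all, 13 were members, 24 had a range of at least 2 with littermates further apart, and 71 had a mean of at least 100. The count of calls was uneven over the litters left out, at 1179 without litter 3, 32 without litter 2, 19 without litter 4 and 7 without litter 5. DESeq2 called 1601 and edgeR without the low-count filter 516.

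The choice of the 22 depended on single litters in a similar way. Without litter 3 the rule found 21 transcripts, of which 18 were among the 22. Without litter 6 it found 36, including 20 of the 22, and 16 transcripts of the 142 had failed the rule through the littermates of litter 6 alone, against 2 to 7 for each other litter. Leaving out litter 4 removed 11 of the 22 and leaving out litter 1 removed 9, since these litters form an end of the range most often. The 3 transcripts with a range above 4 were the full set found when the range had to be at least 3 log2 units, but 2 of them rested on a single litter: the range of ENSSSCT00000012778 was 1.29 without litter 1 and that of ENSSSCT00000002808 was 0.49 without litter 5. The range of ENSSSCT00000045022 was at least 4.13 whichever litter was left out. With littermates held within 0.75 log2 units, ENSSSCT00000002808 alone of these 3 met the rule.

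How far littermates share such patterns can also be described with the range taken from 1 animal of each litter. The limit on the mean still used all 12 libraries. Over the 6 low libraries alone, 379 of the 11697 transcripts had a range of at least 2 log2 units. The high littermates lay within 1 log2 unit in every litter for 51 of them, or 13.5%, against 81.0% of all 11697 transcripts. The median Spearman rho between low and high gilts over the 6 litters was 0.43, against 0.26 over all 11697. Choosing on a wide range in itself favours wider littermate differences and a higher rho. With the high libraries choosing, 266 transcripts had such a range, the littermates lay within 1 log2 unit in 48, or 18.0%, and the median rho was 0.49. Litter 3 was at an end of the range in 239 of the 379 chosen in low gilts and in 73 of the 266 chosen in high gilts. The 2 choices held 19 and 18 of the 22, whose own rule favours this. Without litter 3, a setting added after these values were seen, low gilts chose 186 transcripts, with littermates within 1 log2 unit in 39, and high gilts chose 211, with 53; the median rho was 0.6 in each, against 0.4 over all, from 5 litters. These correlations are over 6 litters whose libraries share depth and day, and are a description.

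Most transcripts with wide litter differences did not keep littermates together. Of the 142, 41 had littermates over 1 log2 unit apart in 1 litter and 79 in 2 or more. The 120 outside the rule included 17 with a range of at least 4, and all 17 had a library under 15 normalized units. Of the 22, 3 had a range of at least 4, and 2 of these 3, ENSSSCT00000012778 and ENSSSCT00000045022, had a library under 15.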

How the data were processed

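The authors deposited 1 table with 3 values per library for 22898 rows, of which 19407 carry a transcript ID. Per the submitters' processing notes, the tools were TopHat2 2.1.1, Trimmomatic 0.36, FastQC 11.5, bedtools, Cufflinks, edgeR and DESeq2, in roles that are not listed; for genome build, annotation and strand, the sources used here give nothing. The deposited signal (normalized values) on the rows with an ID is a read count divided by 1 factor per library: 100% of its values came out whole within 0.001 reads. The deposited columns headed RPKM sum to between 999939 and 1000092 and are CPM; they were not used. The deposited raw values are estimated counts, 10.8% of them not whole, and were rounded. They sit on other rows than the IDs and were joined by equality with the recovered reads, uniquely for 18604 IDs.

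The 22 transcripts and the rules for shape were chosen with earlier results of these data known. The rule on transcripts to name took the widest stepped transcripts by number of litters apart (up to 2 higher and 2 lower), the 2 widest graded ones, the 2 most abundant ones and those at the limits of the rule; the rest were added afterwards to account for all. Tests used all libraries and edgeR 4.0.16 in R 4.3.3 (TMM, filterByExpr, robust quasi-likelihood, Benjamini-Hochberg at 5% over all transcripts tested). They were tried on simulated counts with the same dispersion for every transcript and no likeness of littermates beyond the planted changes. That trial does not bear on error rates with these litters. Litter was tested with iCrit group as covariate, and low against high with litter as a block, since the labels state which gilts share a litter; over all transcripts with a mean of at least 100 the median Spearman rho of littermates over litters was 0.26. Day was tested on littermates' summed counts. Each gilt is 1 animal. Alternatives used DESeq2 1.42.0, limma 3.58.1, other thresholds, TMM scaling and each litter left out.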

Additional observations from a re-analysis of the deposited data

Results flagged for a closer look

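In 24 sets of 6 values (counted reads and the 11 transcripts named by rule, in low and in high gilts), Dixon's criterion at 95% marked an extreme value in 4, which chance meets in about 1 in 20 sets. The transcripts were chosen for litters that stand apart, so such values follow from the choice. For ENSSSCT00000002808 both gilts of litter 5 were far above the others of their group, the low one at 3385 normalized units, where the next low gilt had 217, and the high one at 3050.4, where the next had 184. For ENSSSCT00000010582 the high gilt of litter 1 had 579 and the next high gilt 250.4. For ENSSSCT00000047145 the low gilt of litter 5 had 325 and the next low gilt 104.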

How the results depend on the processing

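The number of transcripts that met the rule was 22, and 15 to 31 with a pseudocount of 10, a minimum mean of 50 or 200 or TMM scaling. Of the 22, these settings kept 19 with a pseudocount of 10 and 20 with TMM scaling. A minimum mean of 50 kept 22 and one of 200 kept 15. It was 3 with littermates within 0.75 log2 units, of which 1 was stepped, and 3 with a range of at least 3, all 3 stepped and 0 with day 15 apart. Leaving out each litter gave 15 to 36 transcripts, 5 to 16 stepped ones and 1 to 14 with day 15 apart; with 5 litters fewer gaps share the range and fewer libraries must be apart. The 5 stepped transcripts became 3 with a minimum mean of 200, 13 with a gap of at least 40% of the range and 3 with 60%. The number on/off was 0, and 1 with an off limit of 20. For litter differences, DESeq2 called 1601 and edgeR without a filter 516, against 85, and leaving out litters gave 7 to 1179; the cause was not tested. For low against high the count was 0, DESeq2 called 2, and the fit without the replicate block called 0, so that the block changed no call. For day, 1 was called in edgeR, 190 by DESeq2, 2 with DESeq2's size factors, 3 without a filter, 4 by limma-voom with litter as a random block and 0 to 365 with litters left out; the cause was not tested. Of 22 recomputed ranges of named transcripts, 20 moved by less than the SD between littermates; with a pseudocount of 10 the range of ENSSSCT00000012778 was 4.07 and that of ENSSSCT00000045022 was 3.82, since few reads lie on their lower side. Depth limits these lower levels, which rest on 5 to 29 reads.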

Other observations

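The widest litter differences among transcripts outside the rule were in those that were near 0 in some animals and high in their littermates. They were chosen after their values were seen. ENSSSCT00000060679 had 0 reads in both gilts of litter 3, 9 reads in the high gilt of litter 1 and 19 in that of litter 5, and 337 to 1681 reads in the other 8 libraries. Its littermates differed by 6.99 log2 units in litter 1 and by 5.70 in litter 5. ENSSSCT00000044802 had 0 reads in both gilts of litter 4, in the low gilt of litter 3 and in the high gilts of litters 5 and 6, and 325 to 402 normalized units in the low gilt of litter 1 and both gilts of litter 2. ENSSSCT00000003291 had 905 units in the high gilt of litter 1 and 782 in the low gilt of litter 3, and at most 49.4 in any other library. Of the 120 transcripts that ranged over at least 2 log2 units outside the rule, 26 had littermates at least 3 log2 units apart in a litter.

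Transcripts with neighbouring ID numbers did not share the patterns of the 3 transcripts with a range above 4. Within 30 ID numbers, 8 transcripts with a mean of at least 100 lay beside ENSSSCT00000012778, 9 beside ENSSSCT00000002808 and 7 beside ENSSSCT00000045022. Their correlations with it over the 12 libraries, on the log2 scale, ran from -0.57 to 0.17, from -0.34 to 0.33 and from -0.48 to 0.10. Their litter means ranged over at most 1.28, 1.55 and 0.94 log2 units. Whether neighbouring numbers are neighbouring genes is not given in the files.

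The 22 transcripts were concentrated near the top of the deposited table. Of the 22 transcripts, 15 stood in the first 1000 of the 19407 rows with an ID, or 68.2%, against 7.23% of the 11697 with a mean of at least 100 and 38.3% of the 120. The Spearman rho between row number and p was 0.53 for the edgeR test between litters, 0.19 for that between days and 0.03 for low against high. The order of the rows is the authors' own and its basis is not stated. The other 7 of the 22 stood further down, among them ENSSSCT00000002808 and ENSSSCT00000045022, at rows 9345 and 9440.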
